A study of Mus musculus with 32 samples.

Results

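The 7 genes described here are H2-Aa, H2-Ab1, H2-Eb1, Cd74, Ciita, H2-DMa and H2-DMb1, which build, load or switch on major histocompatibility complex (MHC) class II molecules. They were taken by name from a table of 42524 genes, and all 7 were found in it. Spinal cord RNA had been sequenced from 32 mice in 8 groups of 4. WT mice, the littermates without the transgene, were compared with G93A mice, B6-Tg(SOD1-G93A)1Gur/J animals on C57BL/6J that carry a mutant human SOD1 transgene and develop a motor neuron disease like amyotrophic lateral sclerosis. Each genotype was studied untreated or given OKN-007, a nitrone with anti-inflammatory properties, in the drinking water. The labels place each mouse at 90 or 155 days, and the study's methods give 95 and 155 days as the ages. The dose given to the sequenced mice is not stated in the sources used here. The groups are named below by genotype, treatment and labelled day, and a mouse is named by the sample number of its label. Nothing in the labels ties a number to a library batch.

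MHC class II molecules present peptides from ingested material to CD4 T cells. H2-Aa and H2-Ab1 encode the alpha and beta chains of the I-A molecule, and H2-Eb1 encodes the beta chain of I-E, whose alpha chain gene H2-Ea is defective in C57BL/6 mice. Cd74 is the invariant chain, which fills the groove and escorts new molecules to the endosome, where H2-DM (H2-DMa with H2-DMb1) exchanges the remaining invariant chain fragment for peptide. Ciita is the transactivator that sits on factors bound to the X and Y boxes of these promoters and is induced by interferon gamma. Dendritic cells, B cells and macrophages of the brain borders hold class II at rest, while microglia have little of it until they are activated.

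Of the 7 genes, H2-DMa (ENSMUSG00000037649, 34119541 to 34139101), H2-DMb1 (ENSMUSG00000079547, 34153072 to 34160230), H2-Ab1 (ENSMUSG00000073421, 34257689 to 34269419), H2-Aa (ENSMUSG00000036594, 34282744 to 34287823) and H2-Eb1 (ENSMUSG00000060586, 34305867 to 34316674) lie close together on chromosome 17 of GRCm38, as GENCODE M21 places them. Their proximal promoters are shown because the shared boxes are what ties these genes to Ciita. In the RefSeq promoter windows of GRCm38.p6, the 250 bases before each start were searched on both strands for the Y box TGATTGG preceded, after 15 to 30 bases, by the X box core GNAAC. These letters and the spacing were settled with the windows in view. The pair was found on either strand in 130 of 32851 promoter windows (0.396%), 59 of them with it on the sense strand, and the Y box alone in 2375 (7.23%). Of 12 class II genes listed by role, 8 had a window and 6 of these held the pair, all on the sense strand. The capitals mark the X box core and the Y box, each line reads 5′ to 3′ on the gene's strand, and the H2-Aa and H2-Eb1 lines end at the base before the start.
H2-Aa (minus strand, chr17:34287824-34287943): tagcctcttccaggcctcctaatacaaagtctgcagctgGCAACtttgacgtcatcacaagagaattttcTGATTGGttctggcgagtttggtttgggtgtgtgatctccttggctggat
H2-Eb1 (plus strand, chr17:34305747-34305866): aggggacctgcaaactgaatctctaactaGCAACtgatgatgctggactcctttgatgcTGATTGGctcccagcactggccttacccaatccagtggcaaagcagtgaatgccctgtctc
H2-Eb2 (plus strand, chr17:34325538-34325579): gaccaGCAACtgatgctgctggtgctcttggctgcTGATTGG
H2-Oa (plus strand, chr17:34092298-34092340): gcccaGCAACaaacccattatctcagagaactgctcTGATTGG
H2-Ob (plus strand, chr17:34238813-34238852): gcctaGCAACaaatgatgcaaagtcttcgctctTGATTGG
In H2-Aa the boxes began 81 and 50 bases before the start, and in H2-Eb1 91 and 61 bases before it. The H2-DMb1 window held the pair at 94 and 63 bases before the RefSeq start, with 26 bases between, as in H2-Aa, but GENCODE M21 has an exon of the gene there, so its letters are not shown. The H2-DMb2 window held a Y box at 92 bases before its start without the paired core, and neither of the H2-DMa windows held a Y box. A match describes letters only, and its absence says nothing about the factors. H2-Ab1, Ciita and Cd74 had no window.

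The libraries held 19701722 to 30138257 counts each, and 3 counts in the smallest library equal 0.152 CPM. Levels are TMM-normalised CPM, a count scaled to the size of its library, and this limit covers counting error only. The groups were compared with edgeR's quasi-likelihood test, two-sided, with Benjamini-Hochberg adjustment over all genes tested, and called at an adjusted p under 0.05. Liver transcripts such as Alb were high in G93A untreated 155 days mouse 12, G93A OKN-007 155 days mouse 15 and WT OKN-007 90 days mouse 6. At 155 days the caudal Hox score (mean log2 CPM of 8 caudal Hox genes) was lower in every G93A mouse than in any WT mouse of the same treatment. Untreated G93A mice 9 to 12 had 0.293, 0.358, 3.52 and 3.48, and the untreated WT mice had 3.66 to 4.58. Treated G93A mice 13 to 16 had 1.42, 3.67, 3.32 and 2.72, and the treated WT mice had 4.39 to 4.69. At 90 days the score was low in G93A OKN-007 mice 13 and 14 (0.727 and 0.522, where mice 15 and 16 had 4.04 and 3.88). WT untreated mouse 3 had 2.07, where mice 1, 2 and 4 had 4.22, 3.60 and 4.10. WT OKN-007 mice 5 to 8 had 2.79, 2.85, 3.49 and 1.53, and the untreated G93A mice had 2.84 to 3.89. The genotype results at 155 days and those of treated mice at 90 days are given below also without the G93A mice named here. The labels do not say which mice, if any, were pooled or whether both ages were sequenced together, so p-values measure the spread between these samples.

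At 155 days, the invariant chain, the class II chains and the exchange factor were all higher in untreated G93A than in untreated WT mice, from about 2-fold for H2-DMa to about 10-fold for Cd74. All 6 members that passed the filter on low counts were called higher, where 21.3% of the 18675 genes tested were. The median log2 fold change was 2.34 over the 6 genes and 0.000155 over all genes tested. In each of the 6, all 4 G93A mice lay above all 4 WT mice, a separation seen upward in 15.6% of the genes. In bulk tissue, more cells of a type cannot be told apart from more RNA in each cell.

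Cd74, the invariant chain gene (ENSMUSG00000024610, chromosome 18, 60803848 to 60812652 of GRCm38), was at 2.62, 3.70, 1.98 and 2.55 CPM in WT untreated mice 1 to 4 at 155 days. In G93A untreated mice 9 to 12 it was at 15.6, 27.5, 39.6 and 22.6 CPM. The lowest G93A mouse was well above the highest WT mouse. The G93A mean of 26.3 ± 10.1 CPM stood against a WT mean of 2.72 ± 0.719 CPM (SD, n = 4 each), and Cd74 was 9.99-fold higher in G93A mice (log2 fold change 3.32, standard error 0.228). Its adjusted p, 1.61e-09 by edgeR, was the smallest of the 6 genes tested.

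H2-Aa, the I-A alpha chain, was at 0.799, 1.49, 0.816 and 1.14 CPM in the untreated WT mice. The untreated G93A mice had 3.48, 7.16, 10.4 and 5.79 CPM. Mouse 11 was again the highest and mouse 9 the lowest, as for Cd74. The log2 fold change was 2.70 (standard error 0.287, adjusted p = 5.38e-07 by edgeR). H2-Ab1, its beta chain partner, was at 1.41, 2.72, 1.59 and 1.14 CPM in WT and at 6.58, 10.8, 17.3 and 9.30 CPM in G93A mice. Its groups were also apart, with the same order of G93A mice as for H2-Aa, and its log2 fold change was 2.73 (standard error 0.295, adjusted p = 6.29e-07 by edgeR). The fitted values of the I-A partner chains were close to each other.

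H2-Eb1, the I-E beta chain, was at 1.03, 2.04, 1.40 and 0.915 CPM in WT untreated mice and at 3.03, 4.03, 4.63 and 3.68 CPM in G93A untreated mice. It was 2.96-fold higher (log2 fold change 1.57, standard error 0.243, adjusted p = 5.15e-05 by edgeR), a smaller value than those of the I-A chains. Whether the chains differ in their change was not tested. The missing partner H2-Ea had at most 2 counts in any of the 32 mice, 8 in all. H2-Eb2, a close relative of H2-Eb1 that could share reads with it, had at most 7 counts in any mouse and did not pass the filter.

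H2-DMb1, the beta chain of the exchange factor, was at 1.10, 2.26, 1.48 and 1.44 CPM in WT and at 5.31, 7.12, 7.19 and 4.39 CPM in G93A untreated mice at 155 days. The log2 fold change was 1.98 (standard error 0.215, adjusted p = 6.76e-07 by edgeR). Its near copy H2-DMb2 was at 0.415 ± 0.154 and 0.766 ± 0.198 CPM (SD, n = 4 each) and was called higher as well (log2 fold change 0.93), and how the counting split reads between these copies is not known. H2-DMa, the alpha chain, was at 5.78, 6.05, 6.18 and 4.77 CPM in WT and at 10.1, 10.9, 14.2 and 10.1 CPM in G93A mice. It had the highest WT level of the 7 genes in CPM and the smallest called change, 2.06-fold (log2 fold change 1.04, standard error 0.131, adjusted p = 4.30e-06 by edgeR). H2-DMa shares 360 exon bases with Brd2 on the opposite strand. Brd2 was at 187 ± 8.66 CPM in WT and 217 ± 16.1 CPM in G93A untreated mice (SD, n = 4 each), a log2 difference of 0.26. Its part in the H2-DMa counts was not tested, since the strand setting of the counting is not stated.

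Ciita, the transactivator (ENSMUSG00000022504, chromosome 16, 10480059 to 10528418 of GRCm38), was scarce throughout, with at most 15 counts in any mouse and 195 in all 32. At 155 days it was at 0.0380, 0.426, 0.155 and 0.131 CPM in untreated WT mice and at 0.224, 0.494, 0.325 and 0.0651 CPM in untreated G93A mice. These values overlapped and several were near the 0.152 CPM that 3 counts give, so a change of Ciita was not detectable at this depth. It did not pass the filter at 155 days and was tested at 90 days and across ages. It shares 329 exon bases with Dexi on the opposite strand, which was at 52.3 ± 9.35 CPM in WT and 37.4 ± 2.09 CPM in G93A untreated mice at 155 days (SD, n = 4 each).

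**Figure D1:**
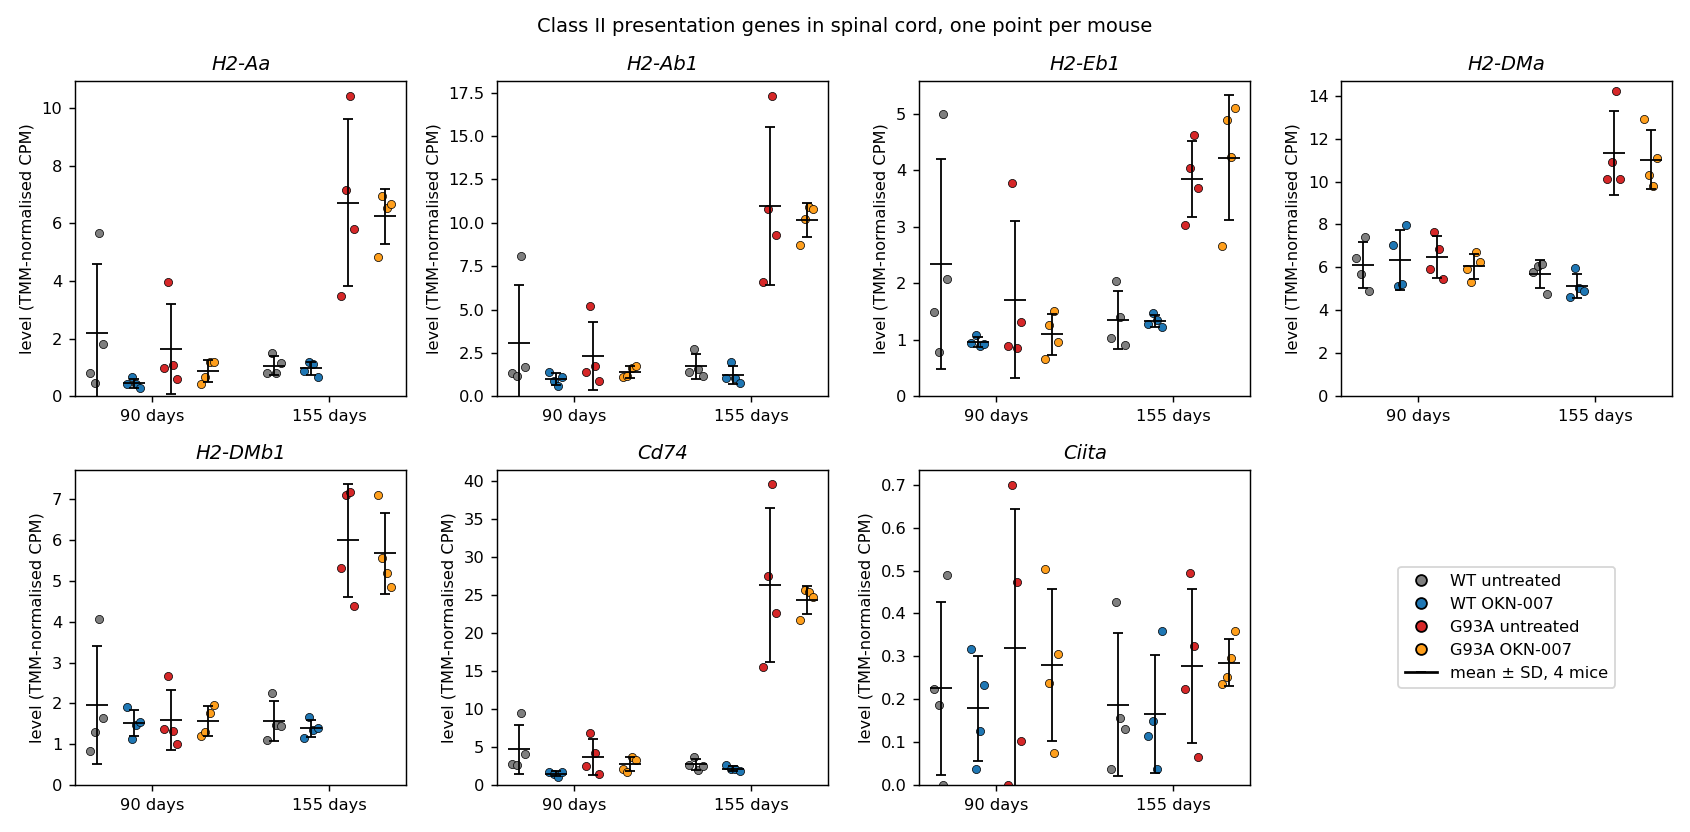
Level of each of the 7 genes in TMM-normalised CPM (vertical axis, from 0), one point per mouse, by labelled day and group, with the mean and SD of 4 mice as bars (cut at 0 where they would fall below it). The 8 G93A mice at 155 days lie above the 8 WT mice of that age for 6 genes, Ciita is at or under 0.700 CPM everywhere, and single untreated mice at 90 days stand high.

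Compared per length, as mean CPM per kilobase of annotated exon in untreated mice at 155 days, H2-DMa (1.65) and Cd74 (1.62) had the highest levels in WT, followed by H2-DMb1 (0.934), H2-Eb1 (0.694), H2-Ab1 (0.670), H2-Aa (0.279) and Ciita (0.0196). In G93A mice Cd74 led at 15.7 CPM per kilobase, ahead of H2-Ab1 at 4.28, H2-DMb1 at 3.57, H2-DMa at 3.28, H2-Eb1 at 1.98 and H2-Aa at 1.77. Ciita stayed last at 0.0291. Annotated exons include rarely used ones, so these lengths are upper limits.

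In some groups a single mouse was the highest for most members. Among the untreated G93A mice at 155 days, mouse 11 was the highest for 6 of the 7 genes, and among the untreated WT mice of that age mouse 2 was the highest for 6. Among the treated G93A mice of that age, mice 13 to 16 were the highest for 2, 2, 1 and 2 genes, and no such mouse stood out. Ranked by mean over the 8 groups, the 155-day G93A groups held the first places for the 6 genes other than Ciita. The untreated and OKN-007 groups overlapped there, and the next group, 90-day mice in every case, was apart from both for Cd74, H2-DMa and H2-DMb1 and overlapped with both for H2-Aa and H2-Eb1. For H2-Ab1 it reached 8.07 CPM, under the treated G93A mice (from 8.75) but over the lowest untreated one (6.58). Below that, neighbours in the order overlapped, except that all WT OKN-007 mice at 90 days lay under the WT OKN-007 mice at 155 days for Cd74. For Ciita, all neighbours in the order overlapped.

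The same genotype difference was measured in other mice, those given OKN-007. Between treated G93A and treated WT mice at 155 days, 6 of 6 members tested were called higher, where 23.3% of the genes were, and the groups were apart in all 6, where 20.2% were apart upward. Cd74 was at 2.58, 2.15, 2.10 and 1.80 CPM in WT OKN-007 mice 5 to 8 and at 21.7, 25.7, 25.4 and 24.7 CPM in G93A OKN-007 mice 13 to 16. The treated G93A mice were close to each other, and their log2 fold change was 3.57 (standard error 0.234, adjusted p = 6.91e-10 by edgeR). H2-Ab1 was at 1.04, 1.96, 1.05 and 0.755 CPM in treated WT and at 8.75, 10.2, 10.9 and 10.8 CPM in treated G93A mice, and rose by 3.15 on the log2 scale. H2-Aa was at 0.683 to 1.18 CPM against 4.82 to 6.93 CPM (log2 fold change 2.75). The remaining log2 fold changes were 2.10 for H2-DMb1, 1.73 for H2-Eb1 and 1.18 for H2-DMa, and all had adjusted p-values of 1.24e-05 or less. In these comparisons the same 6 genes were called when the Hox level entered the model (mean log2 CPM of 8 caudal Hox genes). The log2 fold change of Cd74 was then 3.64 untreated and 3.85 treated. The same 6 were also called without both mice with liver transcripts (3.39 and 3.53). Without untreated mice 9 and 10, which had the lowest Hox scores, they were called in untreated mice as well (3.56). That setting removes no mouse of the treated comparison (3.56), so it cannot check that result. Treated mice 13 and 16, with Hox scores of 1.42 and 2.72, were not left out together. Leaving out mice was a choice made after the data were seen. The Hox scores of the genotypes did not overlap within a treatment. Without mice 9 and 10, the untreated G93A mice still had 3.52 and 3.48 against 3.66 to 4.58 in untreated WT mice. Neither the Hox level in the model nor leaving out those mice can therefore tell Hox level apart from genotype.

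Whether OKN-007 moved these genes was tested within each genotype at 155 days. In G93A mice, 0 of the 6 members tested were called by edgeR's quasi-likelihood test, with 0 also at an unadjusted p under 0.05 and 0 by DESeq2. Over all genes 0% were called and 4.04% had an unadjusted p under 0.05. The log2 fold changes of treated against untreated G93A mice lay between -0.10 for H2-Ab1 (95% interval -0.63 to 0.44) and 0.14 for H2-Eb1 (-0.32 to 0.61). For Cd74 the interval was -0.50 to 0.31, and for H2-DMa, the most precisely measured, -0.30 to 0.23. Missing the threshold does not show that treated and untreated mice were alike, but a 2-fold change lay outside the intervals of all 6 genes. Without the high untreated mouse 11, the Cd74 value was 0.16.

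In WT mice at 155 days the treated values tended to be the lower ones, by log2 fold changes of -0.03 (H2-Eb1) to -0.52 (H2-Ab1, 95% interval -1.23 to 0.19), and 0 of 6 were called by edgeR, with 0 at an unadjusted p under 0.05 and 0 by DESeq2. Over all genes 0% were called and 2.94% had an unadjusted p under 0.05. The drug effect was also not called different between genotypes for any of the 6 genes (edgeR, interaction, adjusted p = 1 each, 0 at an unadjusted p under 0.05, 0 by DESeq2), where 0% of all genes were called and 2.34% had an unadjusted p under 0.05. The largest difference, that of H2-Ab1, was 0.42 (95% interval -0.47 to 1.31).

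**Figure D2:**
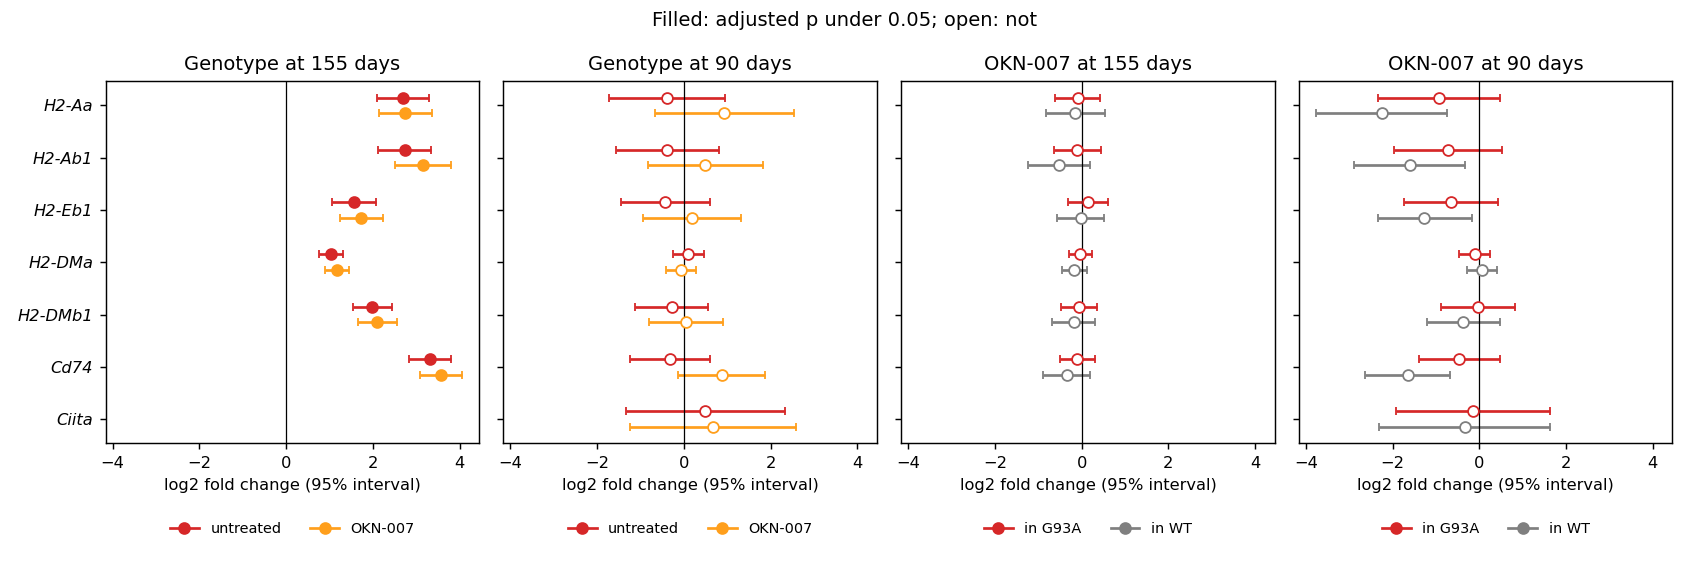
Log2 fold change with 95% interval (horizontal axis) for the 7 genes in the 4 genotype and 4 drug comparisons within an age, filled where the adjusted p was under 0.05. Only the genotype comparisons at 155 days have filled points, from 1.04 to 3.57, and the 90-day intervals are wider than those at 155 days. Ciita was not tested at 155 days and has no point there.

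At 90 days the class II genes were low in both genotypes, and the spread came from a few mice. Cd74 was at 2.72, 2.60, 9.43 and 4.08 CPM in WT untreated mice 1 to 4 and at 2.45, 6.86, 4.17 and 1.38 CPM in G93A untreated mice 9 to 12. H2-Ab1 was at 1.34, 1.15, 8.07 and 1.67 CPM in the same WT mice and at 1.40, 5.23, 1.76 and 0.896 CPM in the G93A mice. WT mouse 3 and G93A mouse 10 stood above their groups. WT untreated mouse 3 was the highest of its group for 6 of the 7 genes (all but Ciita) and G93A untreated mouse 10 for all 7. The H2-Aa level of G93A mouse 10, 3.97 CPM, compared with 0.586 to 1.08 CPM in the other 3, and that of WT mouse 3 was 5.67 CPM against 0.446 to 1.80 CPM. Their H2-Aa, H2-Ab1 and H2-Eb1 levels reached into or near the range of the 155-day G93A mice.

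In those 90-day mice the summed level of 7 border macrophage markers was 8.68 CPM (WT mouse 3, the highest of a group that started at 3.96) and 9.11 CPM (G93A mouse 10, the highest of a group that started at 3.19). The summed microglia markers of the same groups spanned 364 to 422 and 365 to 528 CPM. The T cell markers summed to 1.20 CPM in WT mouse 3 and 2.66 CPM in G93A mouse 10, and the 5 B cell markers to 1.13 and 1.77 CPM. WT mouse 3 lay within its group for both (0.780 to 3.02 CPM for T cells, 0.966 to 1.71 CPM for B cells). G93A mouse 10 was the highest of its group for both (from 0.861 and 0.792 CPM). The part of these cells in the high class II values was not tested.

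Untreated G93A and WT mice did not differ beyond this spread at 90 days. By edgeR 0 of the 7 genes were called, with 0 at an unadjusted p under 0.05 and 0 by DESeq2, and over all 18899 genes 0% were called and 5.96% had an unadjusted p under 0.05. H2-Aa, H2-Ab1, H2-Eb1, H2-DMb1 and Cd74 had log2 fold changes of -0.28 to -0.43, H2-DMa of 0.10 and Ciita of 0.49 (95% interval -1.34 to 2.32). Without WT mouse 3 the value of H2-Aa became 0.71 and that of Cd74 0.27, so the direction rested on that mouse. In treated mice of this age Cd74 was at 1.76, 1.43, 1.05 and 1.72 CPM in WT and at 2.09, 1.74, 3.68 and 3.34 CPM in G93A mice, a log2 fold change of 0.87 (unadjusted p = 0.0859, adjusted p = 1 by edgeR). The treated G93A mice with low Hox scores, 13 and 14, were the lower ones of their group for Cd74, H2-Aa, H2-Ab1, H2-DMa and H2-DMb1, and the part of the cord level in this was not tested. Without them the Cd74 value was 1.23 (unadjusted p = 0.0393, adjusted p = 1 by edgeR). Here too 0 of 7 were called by edgeR, 0 at an unadjusted p under 0.05 and 0 by DESeq2, where 0% of the genes were called and 3.95% had an unadjusted p under 0.05. With treatments averaged, 8 mice against 8, the values were -0.13 to 0.27 for the 6 genes other than Ciita (0.58), and 0 of 7 were called by edgeR, 0 at an unadjusted p under 0.05 and 0 by DESeq2, where 0.0265% of the genes were called and 6.61% had an unadjusted p under 0.05.

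For Cd74, H2-Aa, H2-Ab1 and H2-Eb1, the lowest mean of the 8 groups was that of WT mice given OKN-007 at 90 days. All 4 treated WT mice (Cd74 1.05 to 1.76 CPM) lay under all 4 untreated ones (2.60 to 9.43 CPM), and Cd74 was the only member so separated, where 1.24% of the genes were separated downward. The log2 fold change of Cd74 was -1.65 (standard error 0.469, 95% interval -2.64 to -0.67, unadjusted p = 0.00239). H2-Aa (-2.25), H2-Ab1 (-1.61) and H2-Eb1 (-1.27) also had an unadjusted p under 0.05, which makes 4 of 7 genes where 4.07% of all genes had one. After adjustment over all genes 0 of the 7 were called by edgeR (adjusted p = 0.993 for these 4) and 0 by DESeq2, where 0% of the genes were called. Without WT untreated mouse 3 the log2 fold changes shrank to -1.06 for Cd74, -1.16 for H2-Aa, -0.47 for H2-Ab1 and -0.58 for H2-Eb1. With no filter on low counts, Cd74 was called (log2 fold change -1.66, adjusted p = 0.0106). In G93A mice of this age the drug values ran from -0.93 (H2-Aa) to -0.03 (H2-DMb1), with 0 of 7 called by edgeR, 0 at an unadjusted p under 0.05 and 0 by DESeq2, where 0% of the genes were called and 5.56% had an unadjusted p under 0.05. The drug effect was not called different between genotypes for any of the 7 (edgeR, 0 at an unadjusted p under 0.05, 0 by DESeq2), where 0% of the genes were called and 2.81% had an unadjusted p under 0.05, and for Cd74 the difference was 1.19 (95% interval -0.17 to 2.55).

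The genotype difference was then compared between ages in all 32 mice. In untreated mice it was larger at 155 than at 90 days for 6 of the 7 genes, where 12.9% of the 19829 genes were called in that direction. The log2 differences were 3.64 for Cd74 (standard error 0.514, adjusted p = 3.62e-06 by edgeR), 3.12 for H2-Ab1, 3.09 for H2-Aa, 2.25 for H2-DMb1, 1.99 for H2-Eb1 and 0.93 for H2-DMa. For Ciita it was 0.09 (adjusted p = 0.968 by edgeR). WT mouse 3 at 90 days carried part of this, since without it the differences of H2-Aa and H2-Ab1 were 1.98 and 1.97, and that of H2-Eb1 was 1.29 with an adjusted p of 0.0843. In treated mice 4 of 7 genes were called (Cd74 2.67, H2-Ab1 2.63, H2-DMb1 2.01 and H2-DMa 1.21), where 13% of the genes were. H2-Aa (1.80, adjusted p = 0.136) and H2-Eb1 (1.53, adjusted p = 0.0675 by edgeR) were not. DESeq2 called 5, with H2-Eb1 (1.54, adjusted p = 0.0390) added. Without the low-Hox treated 90-day mice 13 and 14, edgeR called 3, and H2-Ab1 had 2.37 with an adjusted p of 0.0623. Leaving out both high 90-day mice, a choice made after the data were seen, gave 6 of 7 genes untreated and 6 of 7 treated. Over all genes, 3403 of 20009 were then called in either direction untreated and 4628 of 20009 treated. Both mice left out were untreated, so this setting removes no mouse of the treated comparison and cannot check that result.

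Between ages, untreated G93A mice at 155 days were above those at 90 days for 6 of 7 genes, where 21% of the genes were called higher, with log2 fold changes from 0.83 (H2-DMa) to 2.86 (Cd74, adjusted p = 1.75e-07 by edgeR). That of H2-Eb1 was 1.19 with an adjusted p of 0.0204, and without either 155-day mouse 11 or any of 90-day mice 9, 11 and 12 its adjusted p was 0.0506 to 0.0794. In untreated WT mice 0 of 7 genes were called by edgeR between ages, where 24.9% of the genes were called, with 1 (Cd74, log2 fold change -0.79) at an unadjusted p under 0.05 and 0 by DESeq2. Without 90-day mouse 2, H2-Aa (-1.37) and H2-Eb1 (-1.08) were called lower at 155 days. Age cannot be told apart from any difference in how the libraries of the ages were made.

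The other genes of the pathway were followed through lists by role, 43 genes that are not among the 7. Of these, 37 were tested in untreated mice at 155 days, and 24 were called higher and 4 lower in G93A mice, where 21.3% of all genes were called higher and 18.2% lower. In treated mice 26 were higher and 3 lower, where 23.3% and 18.2% were. Their median log2 fold change was 0.93 in both comparisons, and between treated and untreated G93A mice edgeR called 0 of the 37, with 1 at an unadjusted p under 0.05, and DESeq2 called 0.

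In the peptide exchange list, all 5 genes were higher, where 21.3% of all genes were called higher. H2-Oa and H2-Ob, which form the H2-DO inhibitor of H2-DM and are known from B cells, were at 0.228 to 0.724 and 0.294 to 0.937 CPM in untreated WT mice and at 1.14 to 2.19 and 1.79 to 4.14 CPM in untreated G93A mice. These groups did not overlap, and the log2 fold changes were 2.04 and 2.26. H2-Eb2, whose promoter shows the same pair of boxes, had 0 to 0.123 CPM in the G93A and 0.0981 to 0.272 CPM in the WT untreated mice.

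All 8 genes of invariant chain and antigen processing were called higher, where 21.3% of all genes were. Ctss, the cathepsin that trims the invariant chain in antigen-presenting cells, was at 144 ± 16.6 CPM in untreated WT and 1190 ± 378 CPM in untreated G93A mice (SD, n = 4 each), and its log2 fold change was 3.08. Ifi30, the thiol reductase that unfolds antigens in lysosomes, rose from 2.68 ± 0.401 to 20.3 ± 5.98 CPM (2.96), and Ctsd, an aspartic protease of lysosomes, by 2.92. Ctsl, a further invariant chain protease, rose by 2.28, Ctsb by 1.75, the cysteine protease inhibitor Cst3 by 1.01, the asparagine endopeptidase Lgmn by 0.79 and Sppl2a, which clears the last invariant chain fragment, by 0.33. Several of these enzymes are general lysosomal genes, not specific to class II.

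Of the 7 factors that bind at or next to the X and Y boxes, 1 was called higher and 3 lower, where 21.3% and 18.2% of all genes were. Nfya, the subunit of NF-Y that contacts the Y box, rose by 1.01 (standard error 0.0979), from 11.1 ± 0.443 to 21.6 ± 3.94 CPM (SD, n = 4 each). Rfxap (-0.32), Nfyb (-0.29) and Rfx5 (-0.24), an NF-Y subunit and parts of the X box complex RFX, were called lower. Rfxank, Nfyc and Creb1 were not called, with values of 0.20, -0.04 and 0.06. The RFX genes, unlike Ciita, were well measured, with Rfx5 at 27.6 to 35.2 CPM and Rfxap at 54.7 to 65.2 CPM in the untreated G93A mice.

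Of 8 interferon gamma signalling genes, 7 were tested, of which 4 were higher and 1 lower, where 21.3% and 18.2% of all genes were. Ifng itself had at most 2 counts in any mouse and 7 in all 32, and it was at 0 in all untreated mice at 155 days. The receptor chain Ifngr1 rose by 1.43, from 21.4 ± 1.15 to 55.9 ± 18.5 CPM (SD, n = 4 each), Ifngr2 by 0.29 and the transcription factor Irf1 by 1.19. The kinase Jak1 fell by 0.35. Jak2 (0.18) and the feedback inhibitor Socs1 (0.71) were not called. Irf1 responds to other interferons too.

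Costimulatory and checkpoint ligands, which decide what a T cell does with the class II signal, were higher for 4 of the 5 genes tested. Of all genes, 21.3% were called higher. Cd86 was at 1.58 to 2.84 CPM in untreated WT and at 11.8 to 20.1 CPM in untreated G93A mice (log2 fold change 2.80), while Cd80 rose by 1.11, Icosl by 1.27 and Cd274, the PD-L1 gene, by 1.08. Among the receptors, Lag3, which binds class II, was at 3.40 to 6.22 CPM against 27.8 to 55.5 CPM (3.17), and Cd44, a partner of Cd74 in signalling, rose by 2.75. The class II coreceptor gene Cd4 had at most 7 counts in any mouse and was not tested, and the Cd74 ligand Mif was not called (-0.04). In the turnover list, Il10ra, a receptor chain for interleukin 10, rose by 1.78 and the ubiquitin ligase gene Marchf8 by 0.19, while Marchf1 (-0.14) and Cd83 (-0.05), which remove and protect surface class II, were not called. The larger changes of these lists were in the proteases, Lag3, Cd86 and Cd44.

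**Figure D3:**
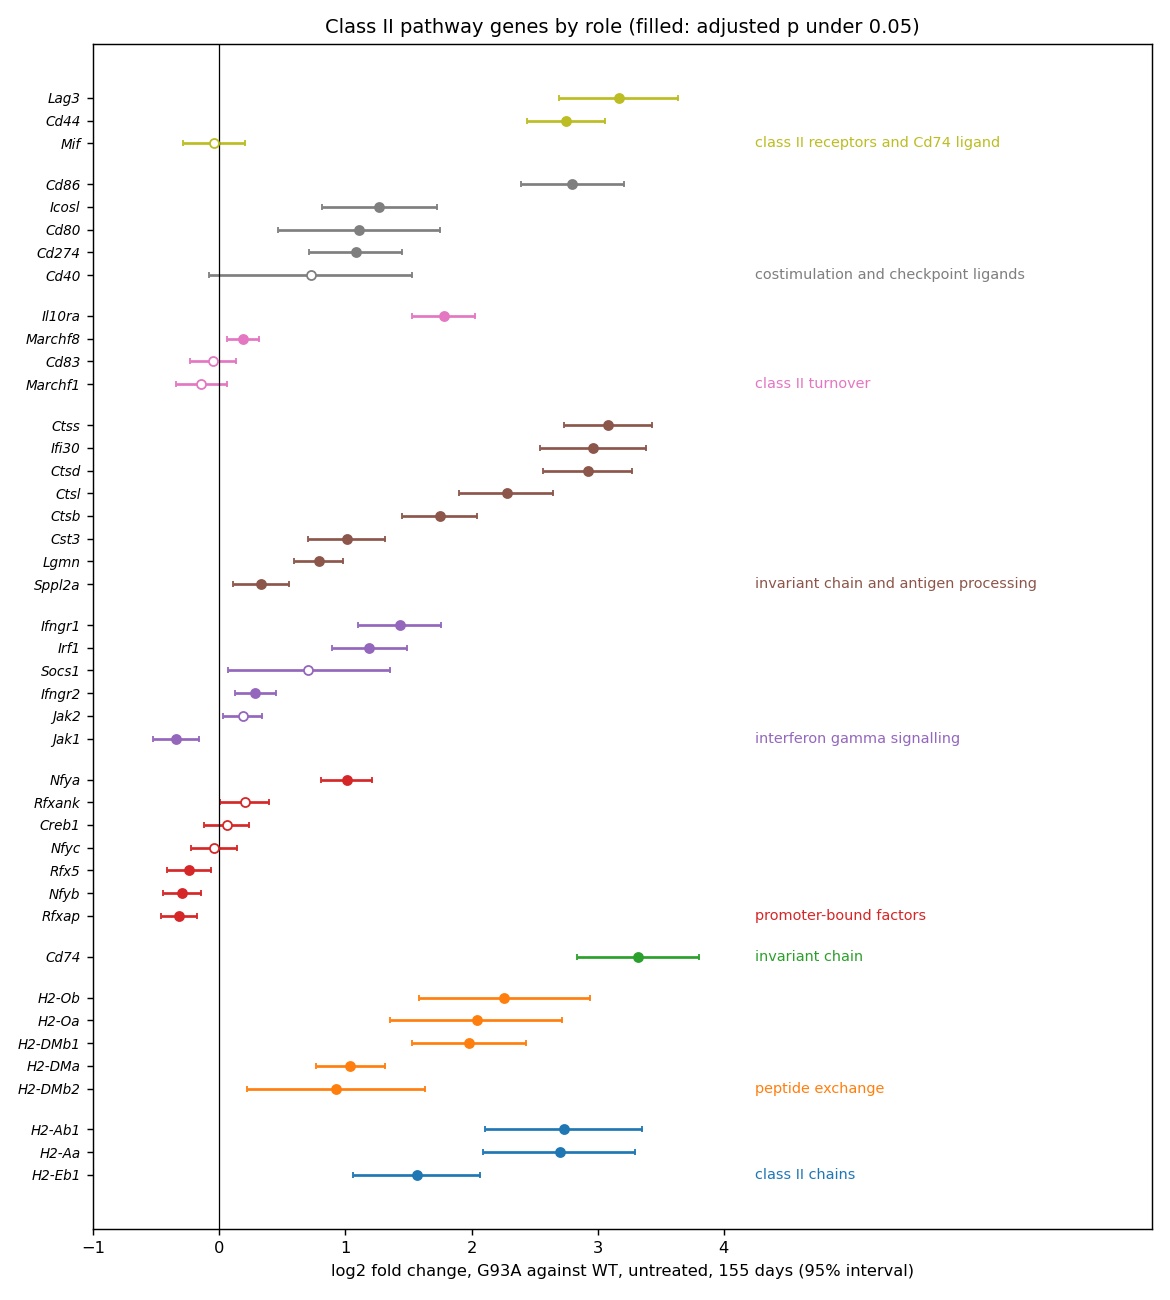
Log2 fold change with 95% interval (horizontal axis) of G93A against WT mice, both untreated, at 155 days for tested genes of the class II pathway, grouped by role and filled where the adjusted p was under 0.05. The class II chains, peptide exchange, Cd74 and antigen processing genes are all to the right of 0, and the promoter-bound factors lie on both sides of it.

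Between ages, the untreated genotype difference of these 37 genes was called larger at 155 days for 18 and smaller for 0, where 12.9% of all genes were called larger.

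At 155 days the summed microglia, border macrophage and T cell markers were higher in untreated G93A mice together with these genes. The summed dendritic cell and B cell markers were not higher. Over all genes tested, 21.3% were called higher in this comparison, the share to set beside the counts that follow. All 8 microglia markers were called higher in untreated G93A mice (median log2 fold change 1.98), and their summed level was 312 to 378 CPM in WT and 1160 to 1910 CPM in G93A mice. All 9 disease-associated microglia markers were higher (median 4.70), with sums of 191 to 239 and 1080 to 2040 CPM. The homeostatic genes P2ry12 (0.39) and Tmem119 (0.65) had smaller log2 fold changes than Aif1 (2.70). Of 7 border macrophage markers, 6 were tested and 2 called higher, where 21.3% of all genes were. These were Ms4a7 (at most 3 counts in untreated WT, 45 to 102 counts in untreated G93A mice) and Pf4 (1.39), and the sums were 3.83 to 4.8 and 6.60 to 11.2 CPM. The other border macrophage markers tested were not called higher, so the higher sum does not show whether border macrophages changed. No marker gene was at 0 in all mice. The 4 dendritic cell markers Xcr1, Clec9a, Cd209a and Ccr7 had at most 8 counts in any mouse, while Batf3 rose and Flt3 and Zbtb46 fell, and the list summed to 35.5 to 37.4 CPM in WT and 26.1 to 30.8 CPM in G93A mice. This sum rests mainly on Flt3, Zbtb46 and Batf3, so it does not show whether dendritic cells changed. The B cell markers summed to 0.855 to 1.18 CPM in WT and 0.599 to 1.07 CPM in G93A mice, with Ms4a1, Cd79a and Cd79b at no more than 17 counts in any mouse. The T cell markers summed to 0.913 to 1.36 and 1.95 to 2.84 CPM, with Cd3g (2.36) and Cd8a (2.61) called higher, and of 6 monocyte markers 2 were tested (Ccr2 1.52 with an adjusted p of 0.0519 by edgeR, and S100a9 -0.37). The part of each cell type in the class II values was not tested.

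**Figure D4:**
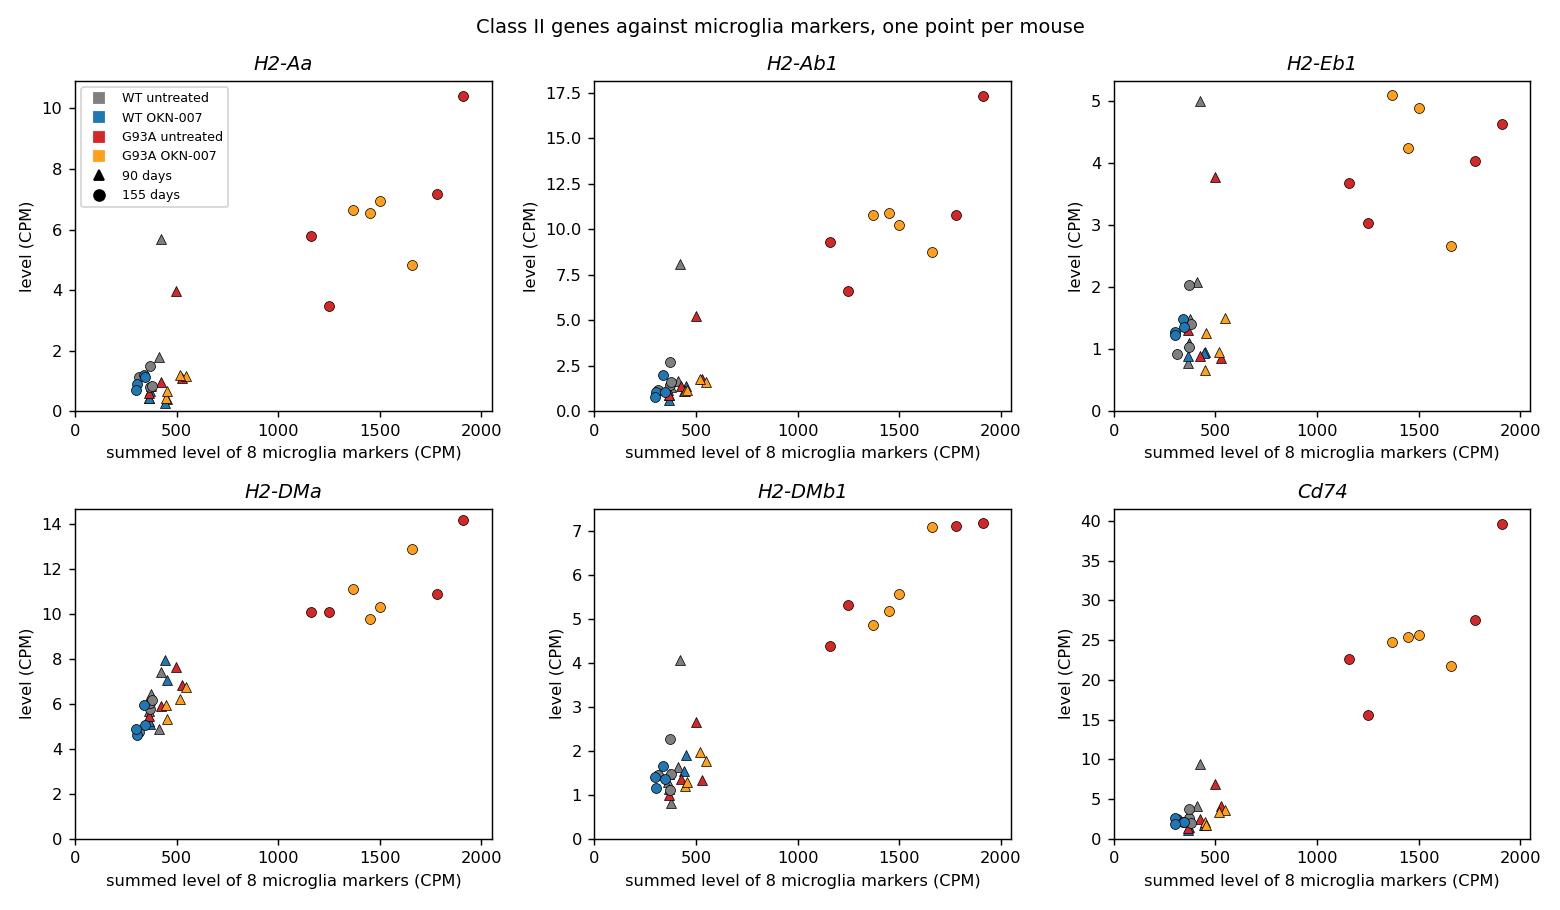
Level of the 6 members other than Ciita (vertical axis, CPM) against the summed level of 8 microglia markers (horizontal axis, CPM), one point per mouse, with triangles for 90 and circles for 155 days. The 155-day G93A mice form a separate group at 1160 to 1910 CPM of markers, and for the genes other than H2-DMa the high untreated 90-day mice lie above the other mice of like marker level.

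Set against the summed microglia markers, the members parted. For each 100 CPM of markers, Cd74 was at 0.524 to 0.997 CPM in untreated WT and at 1.25 to 2.07 CPM in untreated G93A mice at 155 days, so its groups stayed apart. H2-DMa went the other way, from 1.53 to 1.63 CPM in WT to 0.612 to 0.871 CPM in G93A mice. H2-Ab1 (0.365 to 0.733 against 0.526 to 0.906), H2-Aa (0.216 to 0.402 against 0.278 to 0.545), H2-DMb1 (0.297 to 0.609 against 0.376 to 0.425) and H2-Eb1 (0.278 to 0.550 against 0.226 to 0.317) overlapped between genotypes. In treated mice Cd74 was apart and higher in G93A (0.602 to 0.851 against 1.31 to 1.80), and H2-DMa was apart and lower (1.47 to 1.76 against 0.675 to 0.810). H2-Eb1 was apart and lower there too (0.391 to 0.437 against 0.160 to 0.372), while the other 3 genes overlapped. These ratios carry no test, and they depend on the 8 marker genes, whose own log2 fold changes ran from 0.39 (P2ry12) to 3.86 (Fcrls).

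The genes whose levels ran most like each member over the 32 mice were found by the root mean square difference of centred log2 CPM, as a description. Serping1, the C1 inhibitor gene, was the nearest to Cd74 (0.427), H2-Ab1 (0.465) and H2-Aa (0.556), with Cyba (0.476) and Capg (0.483) next for Cd74, C1ra (0.526) and S1pr3 (0.557) for H2-Ab1, and Steap4 (0.616) and C1ra (0.636) for H2-Aa. Between members, Cd74 and H2-Ab1 differed by 0.366 and H2-Aa and H2-Ab1 by 0.408, closer than any gene outside the 7. H2-Eb1 had Arhgap19 (0.476), Ccdc102a (0.483) and Ajuba (0.485) nearest, about as near as H2-DMb1 (0.481). H2-DMb1 had Dhrs3 (0.345), Naglu (0.352) and Tm4sf1 (0.352), and H2-DMa ran closely with Ifnar2 (0.141), Cmtm6 (0.163) and Necap2 (0.175). Ciita was at 0.856 from H2-DMa and 1.56 from Cd74, and the genes nearest to it, Gm28417, Gm47690 and Gm7331, were at 0.711 to 0.721. With at most 15 counts in any mouse, its log2 values are strongly affected by counting error. The measure also grows with the size of the other gene's change. These distances therefore do not show whether Ciita ran with the other members.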

How the data were processed

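Spinal cord RNA of 32 mice, 4 in each of 8 groups, was sequenced from a stranded mRNA kit. After trimming and STAR alignment, the authors deposited raw gene counts without normalization. The sources differ on the rest: the study's methods give GRCm38, HTSeq and GENCODE M10, while the processing notes list GRCm39, hg38 and featureCounts, and 1321 of 42524 gene IDs in the table are not in GENCODE M21. Names and GRCm38 positions were therefore taken from GENCODE M21 by gene ID (41203 genes, 96.9%). The strand setting is not given in the sources used here. The human SOD1 transgene was not analysed here.

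Depth was 19701722 to 30138257 counts per mouse (median 26658755). The closest pair of libraries of a group differed by a chi-square of 3.80 per gene, so none was counted as a repeat. Counts were analysed with edgeR 4.0.16 in R 4.3.3: filterByExpr, TMM, and the quasi-likelihood test on the 16 mice of each age as 4 groups, and on all 32 mice as 8 groups for comparisons between ages. Standard errors came from the F statistic, and the procedure was tested on simulated data. The 7 genes, the role and marker lists and the tests were chosen with earlier results of these data known. List genes are named where they were called in untreated mice at 155 days or had at most 3 counts in every mouse, the 3 genes nearest in pattern are named for each member, and further list and marker genes were named after their values were seen. The alternatives were DESeq2 1.42.0, RLE factors, robust dispersions, no filter on low counts, a minimum log2 change of 1 as well, all 32 mice in one fit, only the compared groups, the caudal Hox score (mean log2 CPM of 8 Hox genes) as a covariate, a block for the sample number, leaving out each mouse, and, added after the data were seen, leaving out both 90-day mice with high class II levels, both 155-day mice with liver transcripts, or both mice with the lowest Hox scores at either age. RefSeq promoter windows matched 8 of 12 class II genes. Values of some single genes on the role and marker lists are not reported here.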

Additional observations from a re-analysis of the deposited data

Results flagged for a closer look

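In 56 groups of 4 mice (7 genes in 8 groups), 3 held a single mouse far from its group by Dixon's gap criterion at 95%, where chance gives about 2.8. H2-Aa was at 3.97 CPM in G93A untreated 90 days mouse 10, where the next mouse was at 1.08. H2-Eb1 was at 3.78 CPM in the same mouse, where the next was at 1.31. H2-Ab1 was at 8.07 CPM in WT untreated 90 days mouse 3, where the next was at 1.67. The number is about what chance gives, and the chains are not independent of each other within a mouse.

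The genotype difference was called different between 155 and 90 days by edgeR's test of the difference itself. In untreated mice the log2 differences were 3.09 for H2-Aa, 3.12 for H2-Ab1, 1.99 for H2-Eb1, 3.64 for Cd74, 0.93 for H2-DMa and 2.25 for H2-DMb1. In mice given OKN-007 they were 2.63 for H2-Ab1, 2.67 for Cd74, 1.21 for H2-DMa and 2.01 for H2-DMb1. Whether treated and untreated mice differ in this was not tested.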

How the results depend on the processing

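Under the alternatives run, no called value changed sign. The count of 6 genes called higher at 155 days held in untreated and in treated mice under every alternative, leave-one-out included, and the same holds for the count of 0 in the drug comparisons at 155 days and in the genotype comparisons at 90 days. With no filter on low counts, 1 gene (Cd74) was called between treated and untreated WT mice at 90 days. Leaving out each mouse gave 0 to 2 genes between ages in untreated WT mice, and 5 to 6 untreated and 4 to 5 treated for the difference of the genotype change between ages. Without mice 13 and 14 the treated count was 3, and over all genes it went from 4557 to 2851. Over all genes, main counts of 0 at 90 days became 16 by DESeq2 and 39 with no filter on low counts for the untreated genotype comparison, and 3 and 24 for the treated one. The averaged comparison went from 5 to 66 and 110 (21 with all 32 mice in one fit, 11 without the low-Hox mice 13 and 14), and the drug effects went from 0 to 8 (G93A) and 14 (WT) with no filter, the interaction to 3, and all were 0 by DESeq2. At 155 days no filter gave 17 (G93A), 10 (WT) and 8 (interaction), and DESeq2 0, 2 and 2. The sample numbers 1 to 16 are shared by both ages, and the replicate block on that number left these counts at 6 untreated, 4 treated, 0 between ages in WT and 6 in G93A mice. Of the 16 numbers, 2 had a correlation of deviations over 0.1 between ages (range -0.219 to 0.135). These correlations show no pairing by number, but with 4 mice a group they cannot exclude one. No paired fit was possible within an age, where no number is shared. The depth limits Ciita, H2-Ea and Ifng, and 4 mice a group with 2 high mice at 90 days limit that age.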
